A study of Mus musculus with 6 samples.

Results

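The MHC class II presentation genes described here are a fixed set of 10 genes out of the 19938 that could be tested: the classical chain genes H2-Aa, H2-Ab1 and H2-Eb1, the chaperone and chaperone-inhibitor chain genes H2-DMa, H2-Oa and H2-Ob, the invariant chain gene Cd74, the transactivator gene Ciita, and the endosomal processing genes Ctss and Ifi30. They were listed by name, with earlier results of these data known, so their count of calls is a description of a chosen set. Each was represented by 1 probe set of an Affymetrix Gene 1.0 ST array. RNA came from F4/80+ cells taken out of tumours that had been implanted in St2-/- mice (3 samples, 1 array each) or in wild type mice (3 samples, 1 array each). Mouse macrophages carry F4/80 on their surface, and the cytokine IL-33 signals through ST2. The genotype is that of the mouse that carried the tumour. The labels give neither the tumour, the strain, the sex or age of the mice, nor the purity of the F4/80+ cells, and whether each sample is a separate animal is not stated. The p-values therefore cover the spread between samples, which may be technical.

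MHC class II molecules show peptides from swallowed proteins to CD4 T cells. An alpha and a beta chain are built together with the invariant chain, which fills the groove and steers the complex to endosomes. There proteases trim the invariant chain to a short fragment called CLIP, and the chaperone DM exchanges CLIP for antigen peptides while DO restrains DM. Transcription of the chains, of DM and of the invariant chain depends on CIITA, a coactivator that binds no DNA itself and docks on factors assembled at the X and Y boxes of their promoters. In macrophages CIITA is classically induced by interferon gamma, with IRF1 among the factors that act on its gene.

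The X and Y boxes were looked for in the RefSeq windows (build GRCm38.p6) of 250 bases before to 50 bases after each gene start. A window was given for 7 of the 10 genes (8 windows, since H2-DMa has a pair of starts), and H2-Ab1, Cd74 and Ciita had none. Of these, 5 are printed here, from 250 bases before the start up to the start: the 4 chain promoters in which such letters lie near the start, and that of Ctss, whose letters differ from them. Capitals mark the letters of the X box, CCAAT or its mirror ATTGG (the Y box letters), and, in Ctss, those of the interferon-stimulated response element.
H2-Eb1 (chr17:34305617-34305866, plus strand): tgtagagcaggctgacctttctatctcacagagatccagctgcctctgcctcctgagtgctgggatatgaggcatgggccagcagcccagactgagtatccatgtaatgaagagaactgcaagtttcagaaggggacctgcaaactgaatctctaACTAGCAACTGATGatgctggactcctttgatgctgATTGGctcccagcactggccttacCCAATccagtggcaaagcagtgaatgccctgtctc
H2-Ob (chr17:34238655-34238904, plus strand): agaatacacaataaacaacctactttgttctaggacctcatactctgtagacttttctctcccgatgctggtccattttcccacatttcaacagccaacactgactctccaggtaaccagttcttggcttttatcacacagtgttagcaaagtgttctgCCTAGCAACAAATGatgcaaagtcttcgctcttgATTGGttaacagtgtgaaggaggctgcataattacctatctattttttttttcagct
H2-Oa (chr17:34092129-34092378, plus strand): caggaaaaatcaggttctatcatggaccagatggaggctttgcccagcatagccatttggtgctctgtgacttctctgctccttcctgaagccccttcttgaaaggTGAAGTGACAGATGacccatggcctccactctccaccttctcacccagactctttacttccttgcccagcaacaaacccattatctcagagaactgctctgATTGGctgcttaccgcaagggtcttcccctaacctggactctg
H2-Aa (chr17:34287824-34288073, minus strand): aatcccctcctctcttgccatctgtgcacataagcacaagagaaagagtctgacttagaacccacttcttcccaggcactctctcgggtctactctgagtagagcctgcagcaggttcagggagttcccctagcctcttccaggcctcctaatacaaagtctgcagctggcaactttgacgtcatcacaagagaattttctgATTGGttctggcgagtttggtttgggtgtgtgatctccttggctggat
Ctss (chr3:95526536-95526785, plus strand): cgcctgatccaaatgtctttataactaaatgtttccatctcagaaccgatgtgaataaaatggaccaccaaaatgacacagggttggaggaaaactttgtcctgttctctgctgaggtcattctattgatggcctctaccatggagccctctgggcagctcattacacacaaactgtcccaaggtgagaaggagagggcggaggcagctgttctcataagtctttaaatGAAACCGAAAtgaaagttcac

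In all 4 of the chain promoters printed, which were chosen for such letters, ATTGG stood shortly before the start. Its first base lay 59 bases before the start in H2-Eb1, 57 in H2-Ob, 48 in H2-Aa and 43 in H2-Oa. H2-DMa, the chain gene with windows that is not printed, differed. There ATTGG began 198 bases before the later start, and neither CCAAT nor ATTGG was found in the window of the earlier start. CCAAT on either strand occurred in the windows of 5 of the 7 genes, and in 37.4% of all 32851 windows of the same length. The X box was searched by its consensus letters on both strands with at most 2 mismatches at its fixed positions. It was found in H2-Eb1, H2-Ob and H2-Oa, that is in 3 of 7 genes, and in 22.9% of all windows. In H2-Oa the match had 2 mismatches and lay 144 to 131 bases before the start. A stretch of H2-Oa nearer to its ATTGG, 80 to 67 bases before the start, had 3 mismatches and is not marked. A box that departs further from the consensus letters is missed by this search, so a gene without a match may still hold one. In H2-Eb1 and H2-Ob the match had 1 mismatch and was followed by ATTGG after 22 and 20 bases. An X box with ATTGG within the next 35 bases, a combination added to the planned search, was present in 0.724% of all windows. Other H2 genes with this combination were H2-DMb1, H2-DMb2 and H2-Eb2, and the class I genes H2-D1, H2-Q4, H2-Q6, H2-Q7 and H2-M3. The interferon-stimulated response element, on both strands with no mismatch, was found only in Ctss among the 7 genes, ending 12 bases before the start, and in 3.44% of all windows. The letters TTCNNNGAA of the gamma-activated site were found in 0 of the 7 genes and in 8.30% of all windows. A match is a run of letters and was not tested as a binding site, and the search says nothing of letters outside these windows.

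**Figure D1:**
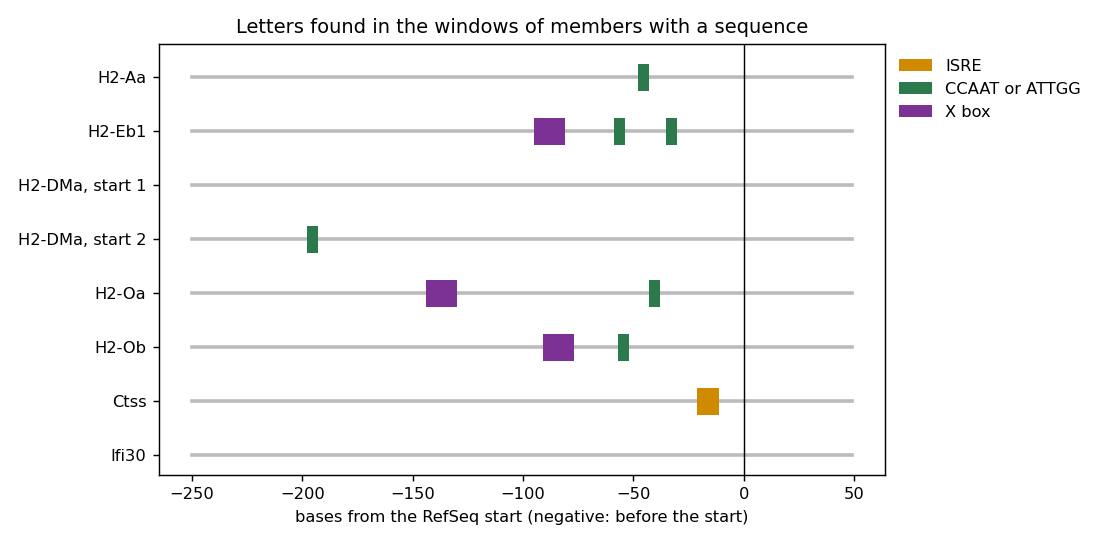
Positions of the letters searched in each window of 250 bases before to 50 bases after the RefSeq start (x axis, bases from the start; 1 row per window, with both H2-DMa windows). Green bars are CCAAT or ATTGG, purple bars the X box with at most 2 mismatches, and the orange bar the interferon-stimulated response element. H2-Eb1 and H2-Ob share an X box followed by ATTGG after 22 and 20 bases, and Ifi30 holds none of the letters.

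The question was whether class II gene expression in the F4/80+ cells differed when the host lacked ST2. The transactivator, all 3 classical chains, the DM chain, both DO chains and the invariant chain were higher in St2-/-, by 1.45-fold to 2.02-fold, while neither of the endosomal processing genes passed the test. Of the 10 genes, 8 were called higher and 0 lower at a limma adjusted p under 0.05, where 10.7% of all tested genes were called higher and 20.8% in either direction. Their median log2 difference was 0.61, against -0.02 over all genes. The groups did not overlap for 9 of the 10, all with St2-/- above, against 18.1% of all genes with St2-/- above, 18.3% with St2-/- below and 36.4% in either direction. Values are RMA values on a log2 scale as deposited, differences are St2-/- minus wild type, and a higher value in a mixture of cells can come from more cells of a type or from more RNA per cell, which cannot be told apart. Each called gene also lay at the upper end of the distribution of differences: only 0.627% of all genes had a greater difference than Ciita and 2.54% a greater one than Cd74, which among the called genes had the smallest difference.

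**Figure D2:**
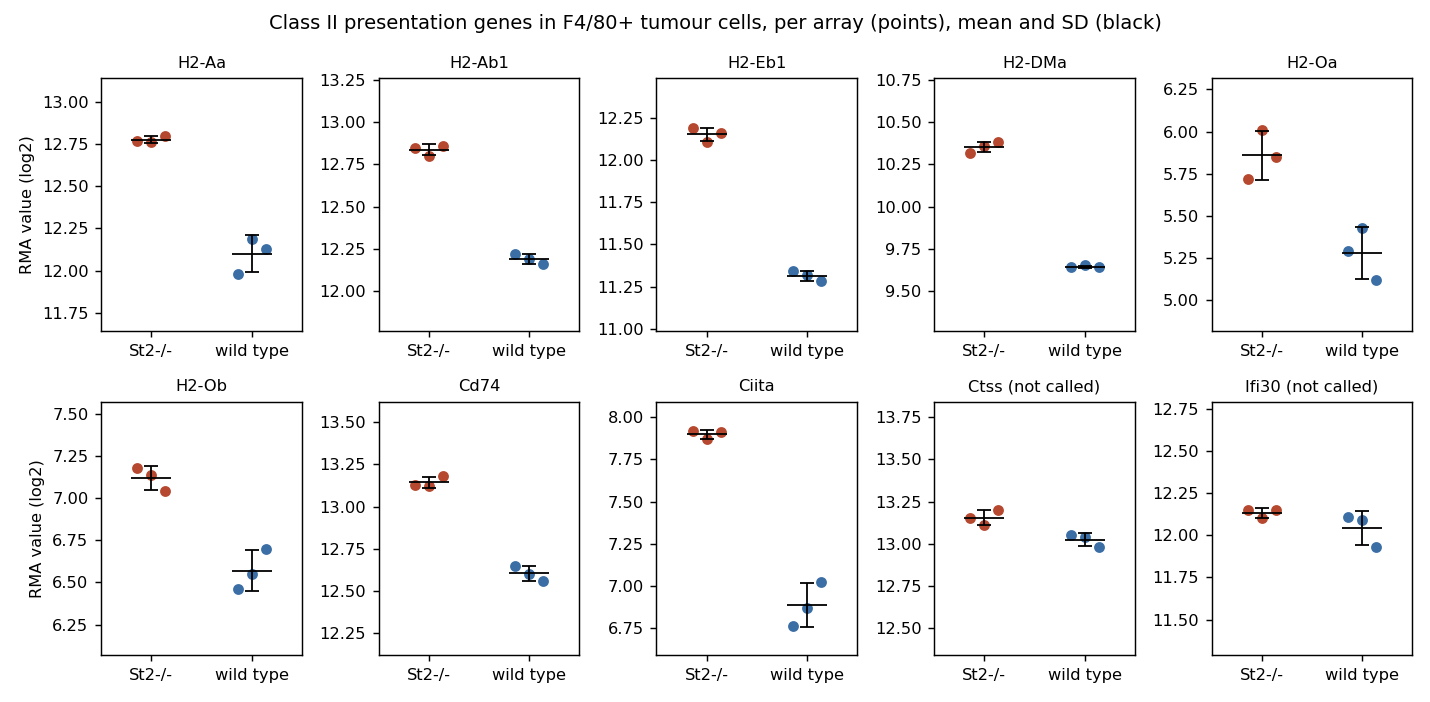
RMA value (y axis, log2; every panel spans an equal range) of the 10 genes in each array, with the mean and SD of 3 arrays in black. In the 8 called genes every St2-/- array lay above every wild type array. The St2-/- arrays of Ctss lay closely above those of wild type, and those of Ifi30 overlapped with wild type.

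Ciita, on which transcription of the class II chains depends, had the largest difference of the 10. It had values of 7.92, 7.87 and 7.91 in St2-/- replicates 1, 2 and 3, against 6.76, 6.87 and 7.02 in the wild type replicates. The lowest St2-/- array lay 0.85 above the highest wild type array, and the wild type arrays spread more widely (SD 0.13, n = 3) than the St2-/- arrays (SD 0.03, n = 3). The log2 difference was 1.02 ± 0.08 (SE), a 2.02-fold higher level (limma adjusted p = 1.46e-05).

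The classical chains form the peptide-binding molecules themselves. H2-Eb1, the beta chain of the E molecule, had values of 12.19, 12.11 and 12.16 in St2-/- and 11.34, 11.32 and 11.28 in wild type, a log2 difference of 0.84 ± 0.06 (SE; limma adjusted p = 1.16e-05). H2-Aa, the alpha chain of the A molecule, had 12.77, 12.76 and 12.80 in St2-/- and 11.98, 12.19 and 12.13 in wild type, a difference of 0.68 ± 0.07 (SE; limma adjusted p = 0.000125). H2-Ab1, the beta chain that pairs with it, had 12.85, 12.80 and 12.86 in St2-/- and 12.22, 12.19 and 12.16 in wild type, a difference of 0.65 ± 0.06 (SE; limma adjusted p = 5.71e-05). In all 3 genes the arrays of a group lay close together and the groups stood at least 0.57 apart. The partner of H2-Eb1, the alpha chain gene H2-Ea, was looked at after its values were seen. It averaged 3.99 ± 0.10 in St2-/- and 4.10 ± 0.08 in wild type (SD, n = 3 each) and was not called (difference -0.11, limma adjusted p = 0.377). Its groups overlapped, and its values lay below 5.26, the level under which the dimmest 40% of genes fell. As background, some laboratory strains carry a deletion in the H2-Ea promoter and make no E alpha chain. H2-Eb2, a further beta chain gene of the same cluster, averaged 5.31 ± 0.21 in St2-/- and 4.95 ± 0.17 in wild type (SD, n = 3 each), with overlapping groups and a limma adjusted p of 0.0648. Because H2 genes resemble each other in sequence, the probes may not separate them fully, and values of single H2 genes are uncertain.

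The invariant chain gene Cd74 had values of 13.13, 13.12 and 13.18 in St2-/- arrays, against 12.65, 12.60 and 12.56 in wild type arrays. The groups were 0.47 apart, and the difference was 0.54 ± 0.06 (SE), a 1.45-fold higher level (limma adjusted p = 0.000204).

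The chains of the peptide editors DM and DO rose as well. H2-DMa, the alpha chain of DM, had 10.32, 10.36 and 10.38 in St2-/- and 9.64, 9.65 and 9.64 in wild type. The difference of 0.71 ± 0.06 (SE) was 1.64-fold (limma adjusted p = 2.83e-05). Both chains of DO, the inhibitor of DM, had wider spreads. H2-Oa, its alpha chain, had values of 5.72, 6.01 and 5.85 in St2-/- and 5.29, 5.43 and 5.12 in wild type, a difference of 0.58 ± 0.10 (SE; limma adjusted p = 0.00257). H2-Ob, its beta chain, had 7.18, 7.14 and 7.04 in St2-/- and 6.46, 6.55 and 6.70 in wild type, a difference of 0.55 ± 0.08 (SE; limma adjusted p = 0.000888). The groups stood 0.29 apart in H2-Oa and 0.34 apart in H2-Ob, less than in the other called genes. H2-Oa lost its call when each gene was tested with its own variance alone (adjusted p = 0.0602). The wild type mean of H2-Oa was 5.28, close to 5.26, the level under which the dimmest 40% of genes fell.

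Neither endosomal processing gene passed the test. Ctss, the cysteine protease cathepsin S that makes the last cuts in the invariant chain in antigen-presenting cells, had values of 13.15, 13.11 and 13.20 in St2-/- and 13.05, 13.04 and 12.98 in wild type. Its groups did not overlap but were only 0.06 apart, and the difference of 0.13 (95% confidence interval -0.01 to 0.27) was not called (limma adjusted p = 0.181). Ctss passed when arrays were centred on their medians (0.22, limma adjusted p = 0.0366) and when the variance prior followed intensity (0.13, limma adjusted p = 0.00835). Ifi30, the thiol reductase GILT that opens disulfide bonds of antigens, had 12.15, 12.10 and 12.15 in St2-/- and 12.11, 12.09 and 11.93 in wild type. These groups overlapped, and the difference of 0.09 (95% confidence interval -0.07 to 0.25) was not called (limma adjusted p = 0.417).

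**Figure D3:**
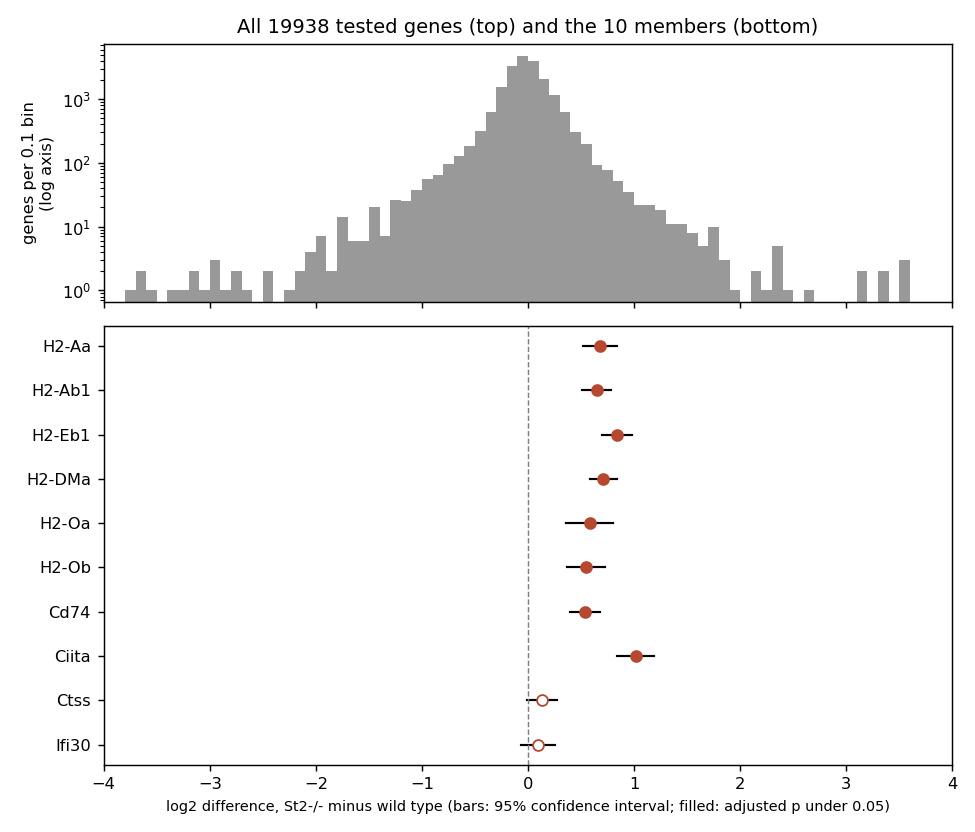
Top: number of tested genes per bin of log2 difference (log y axis). Bottom: log2 difference, St2-/- minus wild type, of each of the 10 genes with its 95% confidence interval; filled points passed an adjusted p of 0.05. The called genes lie between 0.54 (Cd74) and 1.02 (Ciita), and the intervals of Ctss and Ifi30 include 0.

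Whether the genes moved by unequal amounts was examined in the ratio of each gene to H2-Ab1 within an array, in 9 pairs. With 3 against 3 arrays the smallest p of an exact two-sided permutation test is 0.1, so none of these could pass. Relative to H2-Ab1, Ciita differed by 0.37 ± 0.093 and H2-Eb1 by 0.19 ± 0.012 on the log2 scale (SE), and in both the arrays of the groups did not overlap (exact permutation p = 0.1 each, 0.18 after Benjamini-Hochberg adjustment). In the same ratio Cd74 differed by -0.11 ± 0.016 (SE), Ctss by -0.52 ± 0.015 (SE) and Ifi30 by -0.56 ± 0.042 (SE), likewise without overlap and with the same p. H2-Ab1 itself differed by 0.65 without overlap, so a gene that hardly changed must have a lower ratio in St2-/-. The ratios of Ctss and Ifi30 therefore restate their small differences of 0.13 and 0.09 and add no separate result. The ratios of H2-Aa, H2-DMa, H2-Oa and H2-Ob to H2-Ab1 overlapped between the groups and differed by -0.10 to 0.06.

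**Figure D4:**
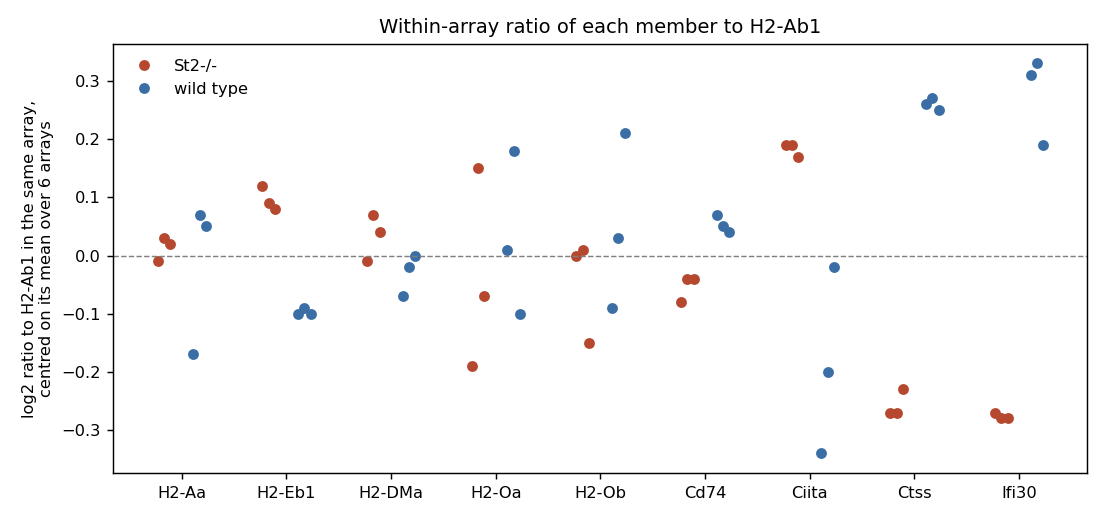
Log2 ratio of each of 9 genes to H2-Ab1 in the same array (y axis, centred on the mean of 6 arrays), with St2-/- points left of wild type points. The Ctss and Ifi30 ratios lie below 0 in every St2-/- array and above 0 in every wild type array, those of Ciita and H2-Eb1 the other way round, and those of H2-Aa, H2-DMa, H2-Oa and H2-Ob overlap. Because H2-Ab1 was itself higher in St2-/-, a gene that hardly changed separates in the way of Ctss and Ifi30.

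Within groups the 10 genes varied little. Their SD over 3 arrays ran between 0.01 and 0.16. St2-/- replicate 2 was the lowest array of its group in 7 genes and the highest in 1 (H2-Oa), and the median deviation from the group mean was only -0.03 for that array. The corresponding median deviations of the other arrays lay between -0.03 and 0.02.

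Of 12 measured genes of class II transcription, which work with CIITA at the promoter or are Ciita itself, 3 were called higher, 0 lower and 9 not called, with a median difference of 0.05. The share called was 25%, near the 20.8% of all tested genes. Beside Ciita these were Kat2b, a histone acetyltransferase (0.31, limma adjusted p = 0.0156), and Nfyc, a subunit of the Y box factor NF-Y (0.28, limma adjusted p = 0.0405). The subunits of the X box factor RFX did not pass: Rfx5 differed by 0.26 ± 0.09, Rfxank by -0.14 ± 0.08 and Rfxap by -0.01 ± 0.07 (SE). Without St2-/- replicate 2 Ciita alone was called of this list. When the dimmest 40% of genes were left out, 4 were called higher and 1 lower. Cyclic loess, an intensity trend and the plain two-sample test also called 1 lower each, so the absence of lower calls depends on the setting.

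Genes between interferon gamma and Ciita were higher in part. Of 12 measured genes, 7 were called higher, 0 lower and 5 not called (58.3% called, against 20.8% of all tested genes), with a median of 0.24. Irf8, a transcription factor of macrophages and dendritic cells, averaged 9.81 ± 0.05 in St2-/- and 9.09 ± 0.08 in wild type (SD, n = 3 each), a difference of 0.72. Irf1, which acts on the interferon-responsive promoter of Ciita, averaged 9.65 ± 0.04 in St2-/- and 9.04 ± 0.08 in wild type (SD, n = 3 each), a difference of 0.61. Irf2, a related factor, differed by 0.37 (limma adjusted p = 0.00267). Ifng, the cytokine gene itself, averaged 4.99 ± 0.11 in St2-/- and 4.45 ± 0.16 in wild type (SD, n = 3 each), within the dimmest 40% of genes (limma adjusted p = 0.00253). The 5 genes not called, chosen after their values were seen, were the receptor genes Ifngr1 and Ifngr2, the kinase genes Jak1 and Jak2, and Usf1, with differences from -0.05 to 0.10. The count was 4 without St2-/- replicate 3 and with all rows of the table tested.

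Proteases of the endosome moved in both directions. Of 21 measured genes of endosomal processing, 5 were called higher, 4 lower and 12 not called (42.9% called, against 20.8% of all tested genes), and the median difference was 0.04. Ctse, the aspartic protease cathepsin E, averaged 7.40 ± 0.08 in St2-/- and 6.37 ± 0.22 in wild type (SD, n = 3 each), a rise of 1.03 (limma adjusted p = 9.61e-05). Ctsh, the aminopeptidase cathepsin H, rose by 0.61 (limma adjusted p = 0.000121). Ctsl, the cathepsin that trims the invariant chain in thymic epithelium of mice, averaged 9.55 ± 0.04 in St2-/- and 10.23 ± 0.13 in wild type (SD, n = 3 each), a difference of -0.68 (limma adjusted p = 0.000187). Ctsd, the lysosomal aspartic protease cathepsin D, averaged 12.04 ± 0.04 in St2-/- and 12.57 ± 0.03 in wild type (SD, n = 3 each), a difference of -0.53. Among 7 measured partners of the invariant chain, 3 were called higher, 1 lower and 3 not called (median 0.13). The share called was 57.1%, against 20.8% of all tested genes. Beside Cd74, Ctsh and Ctsl, the called one was Mif, a cytokine that binds CD74 at the cell surface (0.36, limma adjusted p = 0.00279).

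Genes that set how long class II stays at the surface were measured at 6 loci. Of these, 3 were called higher, 1 lower and 2 not called (66.7% called, against 20.8% of all tested genes), with a median of 0.35. Cd83, which protects class II from ubiquitination by MARCH1, averaged 10.02 ± 0.08 in St2-/- and 9.30 ± 0.02 in wild type (SD, n = 3 each), a rise of 0.72 (limma adjusted p = 4.88e-05). The ligase gene Marchf1 itself, named after its values were seen, differed by 0.06 ± 0.06 (SE) and was not called. Il10, a cytokine that lowers surface class II, differed by 0.64 ± 0.16 (SE) and lay within the dimmest 40% of genes. The receptor chain genes Il10ra and Il10rb differed by 0.66 and -0.24. Without St2-/- replicate 1 or without St2-/- replicate 3, the calls in this list numbered 2.

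**Figure D5:**
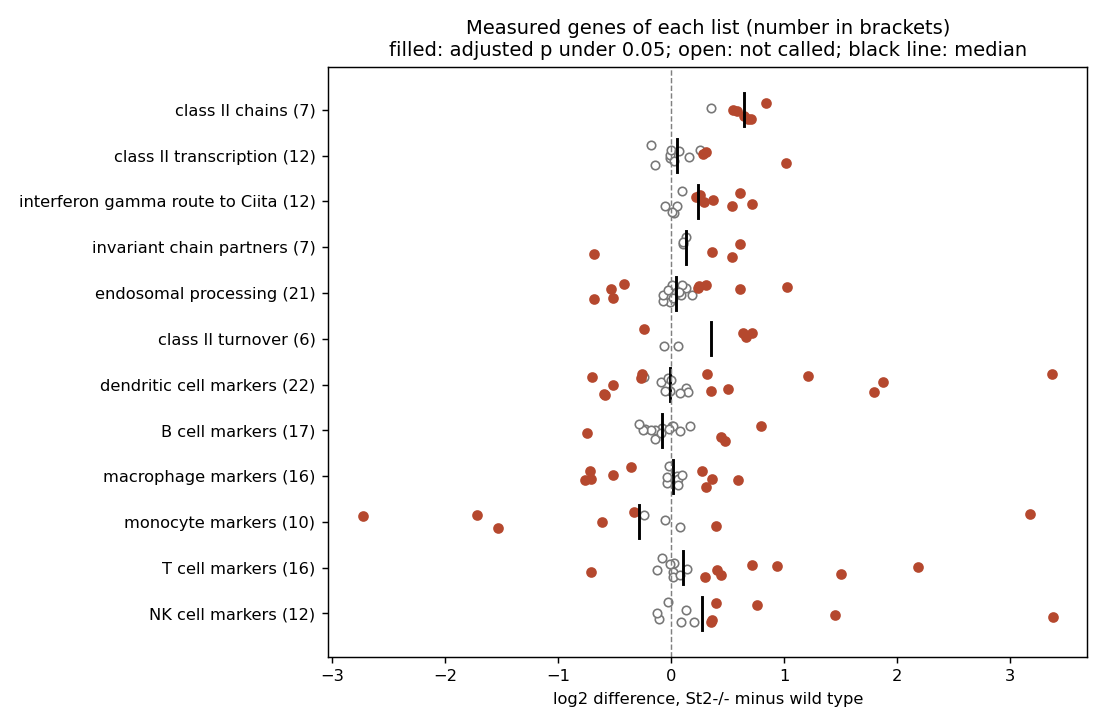
Log2 difference, St2-/- minus wild type (x axis), of every measured gene of the 12 lists; filled points passed an adjusted p of 0.05, open points did not, and black lines are medians. The 7 class II chain genes of the list, which does not hold H2-Ea, lie between 0.35 and 0.84, while endosomal processing genes spread from -0.68 to 1.03 around a median of 0.04.

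On chromosome 17 the 6 chain genes lie in a single stretch, in the order H2-Oa, H2-DMa, H2-Ob, H2-Ab1, H2-Aa and H2-Eb1, per the RefSeq gene table. From H2-Oa to H2-Eb2 that table lists 14 protein-coding genes. Of the 8 that are not among the 10 described here, 6 were measured. Of these, 4 were called higher and 1 lower, against 10.7% of all tested genes called higher and 20.8% in either direction. The 4 higher ones stand together between H2-DMb1 and H2-Ob and serve class I: the peptide transporter genes Tap1 (0.88) and Tap2 (0.59) and the immunoproteasome genes Psmb9 (0.81) and Psmb8 (0.60). Brd2, a chromatin reader that stands between H2-Oa and H2-DMa, differed by -0.21 with a limma adjusted p of 0.0498, and it lost its call in 12 of 16 alternatives (limma or plain two-sample adjusted p from 0.0513 to 0.227). Ciita, Ctss, Ifi30 and Cd74 lie on other chromosomes. This stretch was examined after the values of the chain genes were known.

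The genes whose 6 values followed the called class II genes most closely were Ptk2b, a focal adhesion family kinase, Hk2, a hexokinase of glycolysis, Fmnl2, a formin, Pou2f2, the octamer-binding factor OCT2, and Arhgap18. Likeness was the Euclidean distance over the 6 arrays from the median profile of the 8 called genes, with every gene centred on its own mean, and ran from 0.037 for Ptk2b to 0.080 for Arhgap18. The differences of these genes lay between 0.67 and 0.71. With 2 groups of 3 arrays such a likeness rests mainly on the difference between the groups.

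The purity of the F4/80+ cells is not given, and some other cells in a tumour also carry class II. Markers of several cell types, whether or not they carry class II, are therefore given beside these results. None of the 16 macrophage markers measured (0 of 16) lay within the dimmest 40% of genes, with a mean log2 value over the list of 11.14 to 11.19 in St2-/- and 11.24 to 11.27 in wild type, and 4 were called higher, 5 lower and 7 not called (56.2% called, against 20.8% of all tested genes). Of those with the smallest p, the phagocytic receptor genes Msr1 and Mertk differed by -0.76 and -0.72, the lysozyme gene Lyz2 by -0.71, and Aif1 by 0.59. Adgre1, the gene of F4/80, differed by 0.31 ± 0.06 (SE; limma adjusted p = 0.00631), and Csf1r, the receptor for the macrophage growth factor, by 0.05 ± 0.06 (SE; limma adjusted p = 0.645). Dendritic cell markers had 7 of 22 called higher, 6 lower and 9 not called (59.1% called, against 20.8% of all tested genes). Their mean was 6.75 to 6.82 in St2-/- and 6.45 to 6.52 in wild type. Xcr1, the XCL1 receptor of cross-presenting dendritic cells, differed by 3.37, Clec9a, a receptor for dead cells on the same type, by 1.88, the integrin gene Itgax by 1.80 and the adhesion gene Cadm1 by 1.21. The 6 called lower, named after their values were seen, were Clec10a (-0.70), Cd24a (-0.59), Fscn1 (-0.58), Naaa (-0.51), Cd209a (-0.27) and Ccr7 (-0.26). Flt3 and Zbtb46, which define conventional dendritic cells and were named after their values were seen, were not called (-0.01 ± 0.12 and -0.24 ± 0.11, SE), and 9 of the 22 lay within the dimmest 40% of genes.

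B cell markers had a mean of 4.91 to 4.97 in St2-/- and 4.94 to 4.98 in wild type, and 12 of the 17 lay within the dimmest 40% of genes. Of the 17, 3 were called higher, 1 lower and 13 not called. The share called was 23.5%, near that of all tested genes (20.8%). Cd79b, a signalling chain of the B cell receptor, differed by 0.80, the adaptor gene Bank1 by 0.44, Ms4a1, the gene of CD20, by 0.48, and the B lineage factor gene Ebf1 by -0.74. Pax5 and Cd79a, named after their values were seen, averaged 4.66 ± 0.05 and 3.67 ± 0.16 in St2-/-, against 4.64 ± 0.11 and 3.90 ± 0.08 in wild type (SD, n = 3 each). Monocyte markers had 2 of 10 called higher, 5 lower and 3 not called (70.0% called, against 20.8% of all tested genes). Their mean was 7.63 to 7.69 in St2-/- and 7.97 to 8.06 in wild type. Among them F13a1 differed by -2.73, Fn1 by -1.72, Chil3 by -1.53 and Plac8 by 3.18. T cell markers had 7 of 16 called higher, 1 lower and 8 not called (50% called, against 20.8% of all tested genes). Their mean was 5.69 to 5.75 in St2-/- and 5.29 to 5.42 in wild type. Cd4 differed by 2.19, Il7r by 1.5, Cd3g by 0.94 and Cd28 by -0.71. Cd3d, Cd247, Lat and Zap70, named after their values were seen, were not called (0.02, 0.02, -0.01 and -0.12). NK cell markers had 6 of 12 called higher, 0 lower and 6 not called (50% called, against 20.8% of all tested genes). Their mean was 4.39 to 4.48 in St2-/- and 3.83 to 3.89 in wild type. Klrk1 differed by 3.38, Nkg7 by 1.45, Il2rb by 0.76 and Prf1 by 0.35. Ncr1, Eomes and Klrb1c, named after their values were seen, were not called (0.09, 0.13 and -0.11). Within the dimmest 40% of genes lay 2 of the 10 monocyte, 8 of the 16 T cell and 10 of the 12 NK cell markers. Chil3, Cd3d, Cd3g, Lat, Zap70, Nkg7, Il2rb, Ncr1, Eomes and Klrb1c were among these dim markers. The part of dendritic cells, B cells, monocytes, T cells and NK cells in the class II differences was not tested.

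Pairs of arrays correlated over all tested genes at 0.996 to 0.998 where they shared a genotype, and at 0.986 to 0.988 where they did not. The median of an array was 5.81 to 5.82 in St2-/- and 5.88 to 5.93 in wild type. The targeted gene was not analysed here.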

How the data were processed

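Gene expression was measured in F4/80+ cells of implanted tumours on 6 Affymetrix Gene 1.0 ST arrays, 3 from St2-/- and 3 from wild type mice. The authors deposited log2 values computed by RMA, according to the submitters' processing notes, which give no version. The log base was taken as 2 because RMA returns that scale. Quantile normalization hides a shift shared by most genes. The small number of arrays sets the precision.

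Of 35556 probe sets, 21789 were paired with 1 symbol by the platform table, 1621 with several and 12146 were not listed. Each gene was taken from its probe set with the highest mean, giving 19938 genes. Groups were compared with limma (version 3.58.1, R version 4.3.3; linear model with moderated variance, two-sided, Benjamini-Hochberg over all genes, called at an adjusted p under 0.05, no filter on dim genes). The fit and the motif search were tested on simulated data. The 10 genes and the 12 lists (164 symbols, 155 measured) were chosen with earlier results of these data known, and lists are described by counts without a set test. The named genes are the 10, in each list the called genes of smallest p (at most 4), the subunit partners, the 5 nearest profiles, Adgre1 and Csf1r; exceptions are stated. Promoter windows are from RefSeq (GRCm38.p6). A comparison of protein sequences had been listed and was not run.

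Alternatives were arrays centred on medians, cyclic loess, a trended or robust variance prior, array weights, all rows, averaged probe sets, dropping the dimmest 40% of genes, a replicate block, each array omitted in turn, a plain two-sample test, and X boxes with 1 or 3 mismatches.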

Additional observations from a re-analysis of the deposited data

Results flagged for a closer look

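The beta chain of DM is encoded by a pair of neighbouring genes, H2-DMb1 and H2-DMb2, and the platform table assigns a shared probe set (10444236) to both, so it stood outside the comparison of named genes. This probe set had values of 9.78, 9.68 and 9.71 in St2-/- arrays, against 8.92, 9.04 and 8.85 in wild type arrays. The groups did not overlap, and the log2 difference was 0.79 ± 0.07 (SE; limma adjusted p = 0.00127 over all rows of the table). It drew attention because a signal in data that the main comparison did not use was above the level of the wild type arrays. The values cannot be assigned to either gene.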

How the results depend on the processing

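The 8 called class II genes kept their direction in all 16 alternatives of the gene test and their call in all but 1, the plain two-sample test for H2-Oa; their count was 7 in that test and 9 with arrays centred on their medians or an intensity trend, where Ctss passed. The median difference of the 10 genes was 0.70 after centring, 0.58 after cyclic loess and 0.60 to 0.65 when 1 array was left out. Centring moved the median of all genes to 0.07 and made 3686 of 4980 calls higher (74.0%), against 2142 of 4140 (51.7%). The plain two-sample test called 2703 genes. With the replicate number as a replicate block, 3571 genes, 8 of the 10 and 4 genes of the interferon gamma route were called. Whether the numbers pair the samples is not stated in the labels. Deviations of same-numbered arrays correlated at -0.05 to 0.01, which shows no shared deviation but cannot settle how the samples were collected. With the dimmest 40% left out, B cell and NK cell markers had 2 calls each. With an intensity trend, class II transcription had 5, of which 4 were higher and 1 lower. With at most 1 mismatch the X box was found in 2 of 7 genes, and with at most 3 in 7 of 7, where 88.4% of all windows held a match. H2-Oa had the largest SE of the 10 genes (0.099).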
